A study of Homo sapiens with 6 samples.

Results

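The nuclear-encoded subunits of the last 4 enzymes of oxidative phosphorylation were followed from primed to naive human embryonic stem cells. These were the 4 subunits of complex II (succinate dehydrogenase), 9 of complex III (the cytochrome bc1 complex), 15 of complex IV (cytochrome c oxidase) and 15 of complex V (the ATP synthase). The rule that picks them uses gene symbols and no measured value, and the list holds 43 of the 48183 symbols in the count table. Each of the 43 had 1 identifier there, and 41 had enough counts to be tested. The 2 that did not pass the filter on low counts were COX4I2 and COX6A2.

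Complex II passes electrons from succinate to ubiquinone, complex III passes them on to cytochrome c, and complex IV hands them to oxygen, while complexes III and IV pump protons. Complex V lets the protons flow back through a ring of c subunits and uses the rotation to make ATP. Complexes III to V combine subunits encoded in the nucleus with a few encoded in mitochondrial DNA, whereas complex II is wholly nuclear. Several complex IV subunits exist in versions that differ between tissues, such as heart and muscle, testis or lung.

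Polyadenylated RNA of 6 samples was sequenced in bulk, 4 of naive and 2 of primed cells. All came from a human embryonic stem cell line, given as H1 in the sample labels and as H9 in the study's text. The line carries the EOS reporter, a GFP transgene that the study uses as a marker of the naive state. The untreated primed libraries were primed EOS and primed CA-p38, the latter from an EOS line with a doxycycline-inducible, constitutively active p38 kinase (CA-p38), and both were grown on Matrigel in StemFit AK02N. The naive libraries were from EOS cells induced with AICAR, an activator of AMP-activated protein kinase (AICAR 1 and AICAR 2), from EOS cells induced with VPA, a histone deacetylase inhibitor (VPA), and from CA-p38 EOS cells induced with doxycycline (CA-p38). Induction with AICAR or doxycycline took place in PXGL medium and with VPA in Ndiff227 with PD0325901 and LIF. Per the labels, naive cells were then kept in PXGL on inactivated mouse embryonic fibroblasts and sorted for CD75 and SUSD2. The study's text also describes a move of the CA-p38 cells to culture without feeders, and whether the CA-p38 library came from before or after it is not given in the sources used here. Medium, sorting and, as labelled, the feeder layer differed with the state and cannot be told apart from it. The study gives the AICAR libraries as adjacent passages of AICAR-induced cells, so they may not be independent cultures. Library totals ran from 46823699 counts in AICAR 2 to 54277064 in AICAR 1. At these totals, a count of 0 allows a level of up to 0.0552 to 0.0613 CPM, which is counts scaled to a common effective library size, as that is what 3 counts give.

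The labels were checked against marker genes. All 6 naive markers tested were higher and all 5 primed markers lower in naive libraries. The summed level of the naive markers was 1854 to 2155 CPM in naive libraries and 7.67 to 9.88 CPM in primed ones, and that of the primed markers was 30.9 to 42.5 and 2372 to 2904 CPM. SUSD2 is among the naive markers and was used for sorting. Fitted log2 fold changes ran from 4.63 (TFCP2L1) to 11.19 (DPPA5) and from -10.69 (SFRP2) to -4.47 (ZIC2). No fibroblast marker was called higher in naive libraries as a group, though some were highest in CA-p38. Of 7, none was higher and 4 were lower (edgeR, with 1 and 4 at an unadjusted p under 0.05, and 0 and 4 by DESeq2 and by limma-voom), with sums of 30.9 to 72.9 CPM in naive and 191 to 210 CPM in primed libraries. Of all genes tested, 26% were higher and 27% lower. Fitted log2 fold changes of the fibroblast markers ran from -7.40 (PDGFRB) to 2.15 (LUM, not called). Reads from mouse feeder cells were not separated here.

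Transcripts of most of these subunits took a larger share of the counts in naive libraries. Of the 41 genes tested, 29 were higher and 3 lower in naive libraries, and 9 did not pass the threshold (edgeR's quasi-likelihood test, Benjamini-Hochberg adjusted p under 0.05). Over all 26497 genes tested, 26% were higher and 27% lower. The 29 include COX7A1, which had no counts in primed libraries and passed the filter on low counts only through the naive ones, and without it 28 of 40 were higher. For the subunits the median fold was 1.44, a log2 fold change of 0.53, against 0.11 for all genes, and it was the same with COX7A1 set to its lower bound. Every naive library lay above both primed libraries for 31 of the subunits, COX7A1 among them, and below both for 3. The same held for 32.9% and 32.1% of all genes. In bulk RNA, more cells expressing a gene and more RNA per cell cannot be told apart.

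Because nearly all of these genes are abundant, they were also set beside genes of like level, a comparison chosen after the values were seen. Of the 39 subunits with a mean of at least 50 CPM, 27 were higher and 3 lower. Among the 4406 genes at that level, 32.4% were higher and 39.9% lower. On the log2 scale the median difference was -0.09 for these genes and 0.51 for the subunits. Differences were moderate in size, as 7 of the 28 higher genes other than COX7A1 reached a 2-fold difference and none of the lower ones did.

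By complex, the highest median was found in complex IV and the lowest in complex III. In complex II, 4 of 4 genes were higher, with a median log2 fold change of 0.63. In complex III, 5 of 9 were higher with a median of 0.29, and in complex V 10 of 15 with a median of 0.47. In complex IV, 10 of the 13 tested were higher with a median of 0.996. Of all genes tested, 26% were higher and 27% lower. Both complex IV counts include COX7A1, which passed the filter only through the naive libraries. With COX7A1 at its lower bound the median of complex IV was still 0.996. The lower genes were 1 of complex IV (COX7C) and 2 of complex V (ATP5F1E and ATP5MC2), and in complexes II and III none was lower at an unadjusted p under 0.05 in edgeR or by DESeq2 or limma-voom. All 43 genes together took 0.812% to 0.926% of the counts in naive libraries and 0.529% to 0.565% in primed libraries. No test of the difference between complexes was made.

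**Figure D1:**
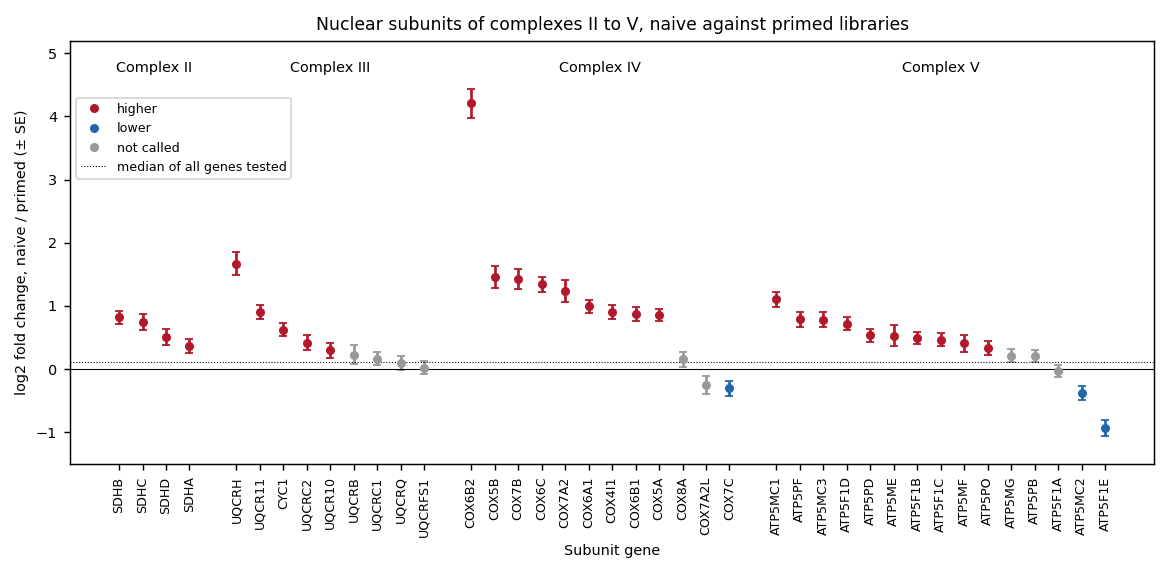
Fitted log2 fold change (naive over primed, ± SE) of 40 of the 41 tested subunit genes, by complex. COX7A1, which had no counts in primed libraries, is not drawn. Colours give the call of edgeR's quasi-likelihood test at an adjusted p under 0.05, and the dotted line is the median of all genes tested, 0.11. Most points lie above the dotted line, COX6B2 stands apart at 4.21, and ATP5F1E is the lowest at -0.94.

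Throughout, levels are CPM scaled by trimmed mean of M values (TMM), naive values are in the order VPA, CA-p38, AICAR 1 and AICAR 2, and primed values in the order primed EOS and primed CA-p38. Errors of log2 fold changes are standard errors (SE) derived from edgeR's quasi-likelihood test. Each is the size of the log2 fold change divided by the square root of the F statistic. Each adjusted p is from the same test with Benjamini-Hochberg adjustment over all genes.

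All of complex II was higher in naive cells. SDHB, the iron-sulfur subunit, was at 111, 111, 101 and 104 CPM in naive and 57.7 and 63.3 CPM in primed libraries. Its naive and primed values were well separated, with a log2 fold change of 0.82 (SE 0.11, edgeR adjusted p = 2.96e-05). SDHC, which with SDHD anchors the enzyme in the membrane, was at 94.6, 86.7, 85.1 and 72.5 CPM and 50.1 and 50.9 CPM, and its log2 fold change was 0.75 (SE 0.12, edgeR adjusted p = 0.000235). SDHD was at 54.1, 56.5, 64.2 and 53.7 CPM and 39.1 and 41.2 CPM, a log2 fold change of 0.51 (SE 0.12, edgeR adjusted p = 0.00338). For each of the 3 genes every naive library lay above both primed libraries, as for 32.9% of all genes tested.

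SDHA, the flavoprotein that oxidizes succinate, showed the smallest difference of the 4. It was at 145, 142, 133 and 125 CPM in naive and 109 and 102 CPM in primed libraries, with a log2 fold change of 0.37 (SE 0.10, edgeR adjusted p = 0.0101). Its value is uncertain because the table also lists the near copies SDHAP1, SDHAP2 and SDHAP3, which took 14.1% to 41.6% of the summed counts of SDHA and its copies. SDHAP3 had 2743, 2876, 3675 and 3169 counts in naive and 339 and 348 in primed libraries. With the copies added to SDHA the log2 fold change was 0.84 (adjusted p = 1.03e-05, edgeR). Without the primed CA-p38 library, and with no copies added, SDHA lost its call, with a log2 fold change of 0.32 (adjusted p = 0.0778, edgeR).

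In complex III, 5 genes rose and the other 4 did not pass the test. UQCRH, the hinge protein that helps cytochrome c dock, showed the highest fold of the complex. It was at 748, 453, 648 and 521 CPM in naive and 203 and 169.6 CPM in primed libraries, 3.18-fold higher with a log2 fold change of 1.67 (SE 0.18, edgeR adjusted p = 5.52e-06). The naive libraries differed among themselves by up to 1.65-fold, with VPA highest and CA-p38 lowest, but the lowest was still 2.23 times the highest primed value. UQCRH lies on chromosome 1 from 46303698 to 46316776 (GRCh38) and has a near copy, UQCRHL. The copies of UQCRH held 6.62% to 11.1% of the joint counts, and with them added the log2 fold change stayed at 1.67. UQCR11, another small subunit, was at 128, 118, 119.6 and 108 CPM and 63.8 and 62.3 CPM, with a log2 fold change of 0.91 (SE 0.11, edgeR adjusted p = 1.42e-05).

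Of the catalytic subunits, one rose and one did not pass. CYC1, cytochrome c1, averaged 181 ± 9.53 CPM (SD, n = 4) across the 4 naive libraries and 117 ± 1.09 CPM (SD, n = 2) across the primed libraries, and its log2 fold change was 0.63. UQCRFS1, the Rieske iron-sulfur protein that takes electrons from ubiquinol, was at 122, 132, 132 and 132 CPM in naive and 116 and 139 CPM in primed libraries. Its primed values lay on either side of the naive ones, and the log2 fold change was 0.02 (SE 0.11, edgeR adjusted p = 0.882), with a sign that changed with the scaling. UQCRQ, a ubiquinone-binding small subunit, also overlapped, at 125, 118, 109.9 and 115 CPM and 101 and 118 CPM, with a log2 fold change of 0.09 (SE 0.11, edgeR adjusted p = 0.491).

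The core proteins, which face the matrix, also gave unlike results. UQCRC2 averaged 174 ± 18.8 CPM (SD, n = 4) across the 4 naive libraries and 130.2 ± 9.21 CPM (SD, n = 2) across the primed libraries and was called higher, with a log2 fold change of 0.42, while UQCRC1 had a log2 fold change of 0.16 (edgeR adjusted p = 0.187). Without the primed CA-p38 library UQCRC2 gave 0.35 (edgeR adjusted p = 0.0832), and UQCRC1 passed the threshold with library totals as scaling (log2 fold change 0.26, edgeR adjusted p = 0.0282). The call of UQCR10 was marginal, with a log2 fold change of 0.29 (SE 0.12, edgeR adjusted p = 0.0496), and was lost in 11 of the 16 alternative analyses. UQCRB, the remaining small subunit, did not pass at 0.23 (SE 0.15, edgeR adjusted p = 0.208).

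**Figure D2:**
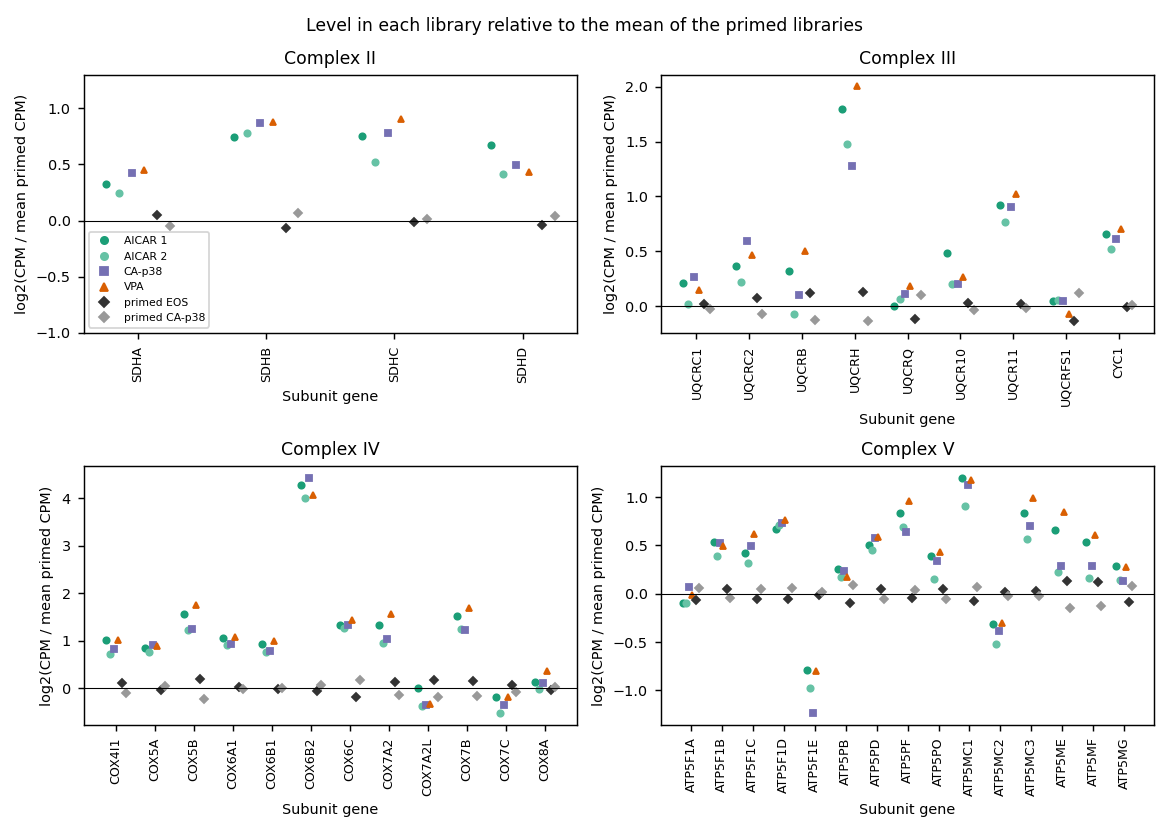
Level of each subunit gene in each of the 6 libraries, as log2 of its CPM over the mean CPM of both primed libraries, for genes with a primed mean above 1 CPM. Each panel is a complex and each symbol a library. In complex II every naive symbol lies above the primed ones, whereas UQCRFS1, UQCRQ and ATP5F1A overlap and ATP5F1E, ATP5MC2 and COX7C lie below.

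Complex IV had the largest fitted difference among genes counted in both states, in COX6B2, and several of its other subunits were more than 2-fold higher. COX5B, a subunit on the matrix side, was at 502, 352, 439 and 347 CPM in naive and 170.1 and 128 CPM in primed libraries, 2.75-fold higher with a log2 fold change of 1.46 (SE 0.17, edgeR adjusted p = 9.68e-06). COX7B, a small membrane subunit, was at 178, 128, 157 and 129.6 CPM and 61.1 and 48.8 CPM, with a log2 fold change of 1.43 (SE 0.16, edgeR adjusted p = 6.04e-06). In both genes VPA was the highest library. Every naive library lay above both primed ones in both, as in 32.9% of all genes tested. COX6C and COX5A were also higher, with log2 fold changes of 1.34 (SE 0.12, edgeR adjusted p = 6.89e-07) and 0.86 (SE 0.10, edgeR adjusted p = 9.15e-06).

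COX7C went the other way and COX8A did not pass. COX7C, a small membrane subunit that all tissues share, was at 228, 203, 227 and 181 CPM in naive and 273 and 246 CPM in primed libraries. Every naive library was below both primed libraries, by a log2 fold change of -0.31 (SE 0.11, edgeR adjusted p = 0.0351). This call was lost in 7 of 16 alternatives, among them library totals as scaling (-0.21, edgeR adjusted p = 0.100) and leaving out CA-p38, AICAR 2 or either primed library (-0.37 to -0.24, edgeR adjusted p from 0.0527 to 0.195). COX8A, another small membrane subunit, was at 83.4, 69.3, 70.7 and 64.3 CPM and 63.1 and 66.2 CPM, with a log2 fold change of 0.15 (SE 0.12, edgeR adjusted p = 0.311).

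The tissue isoforms of complex IV were compared within their families. COX4I1, COX6A1, COX6B1 and COX7A2 are the versions found in most tissues. COX6A2 and COX7A1 are known from heart and skeletal muscle, COX6B2 from testis and COX4I2 from lung and from cells at low oxygen, and COX7A2L takes part in joining complexes III and IV into supercomplexes. Per kilobase of transcript, the broadly expressed version was the most abundant of its family in every library of both states, whereas in CPM COX7A2L lay above COX7A2 in both primed libraries.

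All 4 broad isoforms were higher in naive cells, as were 26% of all genes tested. COX4I1 was at 630.1, 550.1, 629.6 and 511 CPM in naive and 333 and 288 CPM in primed libraries, and the log2 fold change was 0.90 (SE 0.12, edgeR adjusted p = 2.51e-05). COX6A1 was at 222, 201, 219 and 198 CPM and 107 and 103 CPM, with a log2 fold change of 0.996 (SE 0.10, edgeR adjusted p = 3.13e-06). Every naive library lay above both primed libraries in each of these genes, as in 32.9% of all genes tested. COX6B1 was at 224, 195, 215 and 192 CPM and 112 and 114 CPM, and its log2 fold change was 0.87 (SE 0.10, edgeR adjusted p = 1.39e-05). COX7A2 was at 168, 117, 144 and 111 CPM and 62.8 and 51.6 CPM, with the widest spread among naive libraries of the 4 and a log2 fold change of 1.24 (SE 0.17, edgeR adjusted p = 4.44e-05).

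COX6B2 showed the largest difference among the isoforms counted in both states. It lies on chromosome 19 from 55349306 to 55354719, on the minus strand, while COX6B1 lies on the same chromosome from 35648323 to 35658782, on the plus strand. COX6B2 was at 17.9, 22.8, 20.5 and 17.1 CPM in naive libraries, from 849 to 1152 counts, and at 1.01 and 1.10 CPM in primed libraries, from 50 and 54 counts. It was 18.5-fold higher in naive cells, with a log2 fold change of 4.21 (SE 0.23, edgeR adjusted p = 8.44e-09), and its call held in all 16 alternatives. The log2 ratio of COX6B2 to COX6B1 counts was -3.64, -3.10, -3.38 and -3.49 in naive and -6.78 and -6.67 in primed libraries. The difference was 3.32 on the log2 scale, with no overlap between the states. An exact two-sided permutation test, which doubled the smaller tail, gave p = 0.133 (adjusted p = 0.222 over 5 ratios). That is the smallest p this form of the test allows for 4 against 2 libraries.

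Even so, COX6B2 was a minor part of its family. Per kilobase of transcript it made up 2.88% ± 0.459 (SD, n = 4) of the COX6B total in naive and 0.291% ± 0.0153 (SD, n = 2) in primed libraries. A readthrough gene that overlaps COX6B2 on the same strand (ENSG00000267706) had 74, 218, 133 and 89 counts in naive and 3 and 1 in primed libraries, and reads of their shared sequence may have been assigned to either. Spermatid markers were at or below 1.45 CPM, with ODF2 as the exception. Of 8, PRM2 was not analysed here, 3 were tested, and 1 was higher, where 26% of all genes tested were. The higher one was ODF2 with a log2 fold change of 0.58, a gene also used by other cell types. The lowest was ACRV1 at -1.26, which did not pass. The defining transcripts TNP1 and AKAP4 had no counts in any library and PRM1 had none in the naive ones.

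The promoters of COX6B1 and COX6B2 are shown because COX6B2 had the largest difference among the isoforms counted in both states. Each sequence is the 300 bases from 250 before to 50 after the RefSeq start (GRCh38.p14), 5′ to 3′ on the strand of the gene, at chr19:35648073-35648372 (plus strand) for COX6B1 and chr19:55354670-55354969 (minus strand) for COX6B2. Capitals mark the ETS family core, searched as CCGGAAG on both strands, which occurs in the COX6B1 promoter and not in that of COX6B2. The COX6B2 window holds 31 CpG dinucleotides and that of COX6B1 16, against a median of 14 in all promoters.
COX6B1: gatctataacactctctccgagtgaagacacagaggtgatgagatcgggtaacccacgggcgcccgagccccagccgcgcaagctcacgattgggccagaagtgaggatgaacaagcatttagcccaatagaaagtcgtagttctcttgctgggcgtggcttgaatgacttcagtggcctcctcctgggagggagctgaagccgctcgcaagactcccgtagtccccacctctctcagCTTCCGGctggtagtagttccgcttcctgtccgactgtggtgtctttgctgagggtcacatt
COX6B2: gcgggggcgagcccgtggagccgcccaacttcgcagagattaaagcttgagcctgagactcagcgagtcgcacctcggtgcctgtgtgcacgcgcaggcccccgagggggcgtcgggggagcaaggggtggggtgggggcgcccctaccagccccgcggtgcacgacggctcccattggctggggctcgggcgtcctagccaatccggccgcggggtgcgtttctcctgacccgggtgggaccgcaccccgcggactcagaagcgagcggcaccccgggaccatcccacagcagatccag

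The muscle isoforms were almost silent. COX7A1 had 3, 4, 13 and 11 counts in naive libraries and none in either primed library. Against 3 counts per primed library, the mean naive level was at least 2.43-fold higher, although the 3 counts of VPA alone give no bound above 1. COX7A1 was called higher (edgeR adjusted p = 0.0174) but passed the filter only through the naive group, and it lost the call without primed EOS (edgeR adjusted p = 0.114) or primed CA-p38 (edgeR adjusted p = 0.116). COX6A2 had 1 count in AICAR 1 and none elsewhere, and COX4I2 had 2, 0, 4 and 0 counts in naive and 3 and 0 in primed libraries, so no fold is given for either.

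Striated muscle markers were called in both directions. Of 10, 8 were tested, 2 were higher (CKM and MB) and 3 lower (ACTA1, MYL7 and DES). Over all genes tested, 26% were higher and 27% lower. The sum of the muscle markers was 36.7 to 54.5 CPM in naive and 62.2 to 68.9 CPM in primed libraries. Fitted log2 fold changes ran from -4.03 for MYL7 to 4.90 for MB. TNNI3 had the most counts of the list in every naive library, at 2277, 2082, 1664 and 1291. In primed libraries it had 1394 and 1025 counts. Its log2 fold change of 0.52 narrowly missed the threshold (SE 0.21, edgeR adjusted p = 0.0502). MYL2, a defining marker of heart and slow muscle, had 1 count over all libraries. The part of such cells in the COX7A1 counts was not tested.

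COX7A2L did not pass the test, unlike COX7A2. It was at 51.7, 51.2, 65.7 and 50.5 CPM in naive and 73.4 and 57.6 CPM in primed libraries, where AICAR 1 lay above primed CA-p38, and its log2 fold change of -0.26 did not pass (SE 0.14, edgeR adjusted p = 0.144). Without AICAR 1 it was called lower, at -0.37 (edgeR adjusted p = 0.0411). The log2 ratio of COX7A2L to COX7A2 counts was -1.70, -1.19, -1.13 and -1.13 in naive and 0.23 and 0.16 in primed libraries. The difference was -1.48 with no overlap (exact two-sided permutation test, p = 0.133, the smallest this form allows, adjusted p = 0.222). Per kilobase of the canonical transcripts, COX7A2L made up 7.73% ± 1.25 (SD, n = 4) of the COX7A total in naive and 18.8% ± 0.486 (SD, n = 2) in primed libraries. With the median length of coding transcripts in place of the canonical one, the shares were 11.9% ± 1.85 and 27.2% ± 0.632. For COX7A1 to COX7A2 the difference in log2 ratio was 2.52 (the same p and adjusted p). It rests on the few counts of COX7A1, and with 5 counts added in place of 0.5 it turned to -0.031.

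**Figure D3:**
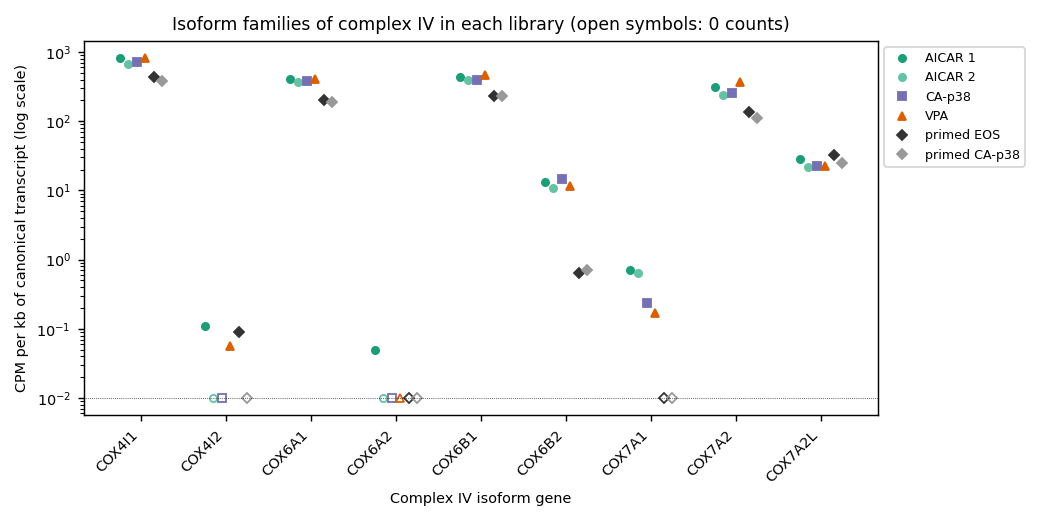
CPM per kilobase of canonical transcript (log axis) of the 9 isoform genes of complex IV in each library, with open symbols on the dotted line for libraries with 0 counts. COX4I1, COX6A1, COX6B1 and COX7A2 stand highest in every library, COX6B2 separates the states most clearly, and COX4I2, COX6A2 and COX7A1 lie near the limit of detection.

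In complex V, the catalytic head gave mixed results. ATP5F1B, the catalytic beta subunit, averaged 851 ± 40.0 CPM (SD, n = 4) across the 4 naive libraries and 606 ± 27.7 CPM (SD, n = 2) across the primed libraries, and its log2 fold change was 0.49 (SE 0.09, edgeR adjusted p = 0.000504). ATP5F1A, the alpha subunit that alternates with beta in the head, averaged 626 ± 36.0 CPM (SD, n = 4) and 639 ± 39.2 CPM (SD, n = 2) and did not pass, at -0.03 (SE 0.09, edgeR adjusted p = 0.795), with a sign that flipped when library totals were used as scaling (0.07). The gamma subunit gene ATP5F1C and the delta subunit gene ATP5F1D, both of the central stalk, were higher, with log2 fold changes of 0.47 and 0.72.

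ATP5F1E, which encodes the small epsilon subunit of the central stalk, had the lowest fold change of the 41 genes tested. It was at 63.7, 47.0, 63.8 and 56.1 CPM in naive and 109 and 112 CPM in primed libraries, 1.92-fold higher in primed cells, with a log2 fold change of -0.94 (SE 0.13, edgeR adjusted p = 4.33e-05). CA-p38 was the lowest library, all naive libraries lay below both primed ones, and the call held in all 16 alternatives. ATP5F1E lies on chromosome 20 from 59025475 to 59032345, on the minus strand, and overlaps TUBB1 on the other strand. Whether the counting used the strand is not given in the sources used here.

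The promoters of UQCRH and ATP5F1E are shown as those of the genes with the highest fold in complex III and the lowest in complex V. They lie at chr1:46303448-46303747 (plus strand) and chr20:59032286-59032585 (minus strand) of GRCh38.p14, in the same window and orientation as above. Capitals again mark the ETS family core, found in UQCRH and not in ATP5F1E. The windows hold 12 and 36 CpG dinucleotides.
UQCRH: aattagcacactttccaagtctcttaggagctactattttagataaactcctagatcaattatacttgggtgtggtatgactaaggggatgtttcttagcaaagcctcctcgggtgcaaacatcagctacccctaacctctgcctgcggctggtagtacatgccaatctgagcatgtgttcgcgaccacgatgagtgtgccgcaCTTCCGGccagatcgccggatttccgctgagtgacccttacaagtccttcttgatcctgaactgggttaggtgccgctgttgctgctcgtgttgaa
ATP5F1E: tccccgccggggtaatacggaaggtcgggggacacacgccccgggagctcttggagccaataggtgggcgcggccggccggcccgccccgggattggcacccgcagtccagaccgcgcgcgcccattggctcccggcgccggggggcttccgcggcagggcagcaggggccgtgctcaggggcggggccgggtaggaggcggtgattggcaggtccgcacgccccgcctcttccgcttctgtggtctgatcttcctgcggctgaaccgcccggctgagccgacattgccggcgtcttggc

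The c-ring genes differed in direction. ATP5MC1, ATP5MC2 and ATP5MC3 encode the same mature c subunit behind different import sequences. ATP5MC1 was at 91.3, 88.1, 92.8 and 75.8 CPM in naive and 38.4 and 42.6 CPM in primed libraries, and the log2 fold change was 1.10 (SE 0.12, edgeR adjusted p = 7.30e-06). ATP5MC3 was at 277, 227, 249 and 207 CPM and 142 and 137 CPM, with a log2 fold change of 0.78 (SE 0.12, edgeR adjusted p = 0.000132). ATP5MC2 was at 86.2, 81.4, 85.8 and 74.1 CPM and 108 and 105 CPM, and it was lower in naive cells by a log2 fold change of -0.38 (SE 0.10, edgeR adjusted p = 0.00813). Both genes that rose and the one that fell kept their calls in all 16 alternatives, and none of the 3 overlapped between the states. Of all genes tested, 32.9% had every naive library above both primed ones and 32.1% had every naive library below.

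Shares of the c-ring transcripts are given as a description. Per kilobase of the canonical transcripts ATP5MC2 had 36.3% ± 0.762 (SD, n = 4) in naive and 59.1% ± 1.14 (SD, n = 2) in primed libraries, while ATP5MC1 had 37.7% ± 0.859 and 22.0% ± 1.59. With the median length of coding transcripts the shares of ATP5MC2 were 15.8% ± 0.577 and 31.2% ± 0.582. The gene with the largest share in primed libraries was ATP5MC2 by the first length and ATP5MC3 by the second, so the order of the 3 levels depends on the length used. These shares were computed after the values had been seen and carry no test.

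**Figure D4:**
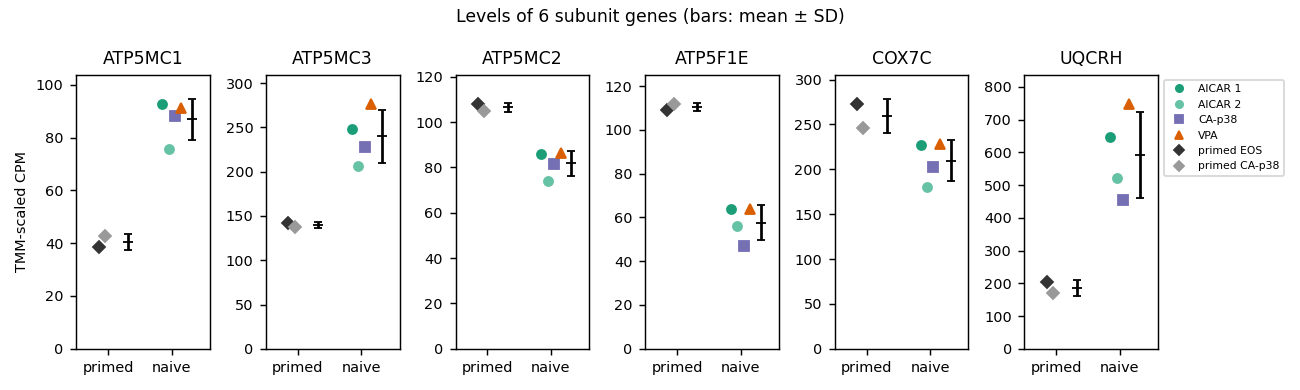
TMM-scaled CPM in each library for 6 genes, with mean ± SD of 4 naive and 2 primed libraries beside the points. ATP5MC1, ATP5MC3 and UQCRH are higher in all naive libraries, and ATP5MC2, ATP5F1E and COX7C are lower.

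Of the peripheral stalk, which holds the head still, 3 of 4 genes were higher, where 26% of all genes tested were. ATP5PF, the coupling factor, was at 192, 155, 177 and 159.6 CPM in naive and 96.2 and 102 CPM in primed libraries, with a log2 fold change of 0.79 (SE 0.12, edgeR adjusted p = 7.92e-05). ATP5PD and ATP5PO had log2 fold changes of 0.53 and 0.33. The call of ATP5PO was lost without AICAR 1 (0.30, edgeR adjusted p = 0.0590) and without primed CA-p38 (0.29, edgeR adjusted p = 0.124). ATP5PB did not pass at 0.21 (SE 0.10, edgeR adjusted p = 0.0875), although all naive libraries lay above both primed ones.

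Among the small membrane subunits, ATP5ME and ATP5MF were called higher, with log2 fold changes of 0.53 (SE 0.17, edgeR adjusted p = 0.0186) and 0.41 (SE 0.14, edgeR adjusted p = 0.0238). Both calls were lost without AICAR 1 (0.47 and 0.35, edgeR adjusted p = 0.0512 and 0.0692) and without primed CA-p38 (0.40 and 0.29, edgeR adjusted p = 0.158 and 0.194), and that of ATP5MF also without VPA (0.32, edgeR adjusted p = 0.0549). ATP5MG gave 0.21 (SE 0.10, edgeR adjusted p = 0.101) and did not pass. ATP5MF and ATP5MG overlap readthrough or neighbouring genes on the same strand, so their values are uncertain. Counts of these genes came to 27.6% and, for another, 16.1% of those of ATP5MF, and to as much as 39.9% of those of ATP5MG. Such overlaps came to 14.2% to 21.5% of the counts of SDHA, UQCR11, COX8A and ATP5PO.

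Each naive library was also set beside the primed library of its own parental line, as a description with no test. The subunits above their parental level numbered 36 of 41 in VPA, 35 of 40 in CA-p38, 36 of 41 in AICAR 1 and 33 of 40 in AICAR 2, counting those with a value above 0 in both. The median log2 ratio was 0.54, 0.59, 0.49 and 0.38. VPA, AICAR 1 and AICAR 2 share the primed EOS library as reference. UQCRH was above its parental library by 1.88, 1.42, 1.67 and 1.36 on the log2 scale, COX6B2 by 4.15, 4.37, 4.35 and 4.08, and ATP5F1E stood at -0.78, -1.25, -0.78 and -0.96.

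Genes of the proteins that assemble these complexes were called about as often as genes in general. Of 40 assembly factors, all tested, 10 were higher and 10 lower, with a median of -0.07 on the log2 scale, where 26% and 27% of all genes tested were higher and lower. For complex II, 1 of 4 was higher and 1 lower, from SDHAF1 at 0.76 to SDHAF3 at -0.80. For complex III, 3 of 6 were higher and 1 lower, from UQCC1 at 0.76 to UQCC2 at -0.98. Complex IV had 5 of 25 higher and 6 lower, from the copper chaperone SCO2 at 1.13 to COA3 at -0.97, and complex V 1 of 5 higher and 2 lower, from ATPAF2 at 0.68 to TMEM242 at -0.70.

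The mitochondrially encoded subunits of complexes III to V showed no common direction. Of 6 tested, MT-CO1, the catalytic core of complex IV, was higher with a log2 fold change of 1.01 (edgeR adjusted p = 0.000271), while the ATP synthase genes MT-ATP6 and MT-ATP8 were lower, at -0.44 and -0.54 (edgeR adjusted p = 0.0167 and 0.00805). That is 1 higher and 2 lower of 6, where 26% and 27% of all genes tested were higher and lower. The states overlapped in MT-ATP6, as naive VPA (1843 CPM) lay above primed CA-p38 (1805 CPM). The median over the 6 was -0.0043, and their sum was 16937 to 22499 CPM in naive and 12107 to 18267 CPM in primed libraries.

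Of 12 further nuclear subunits and partners, 11 were tested, 6 were higher and none was lower (edgeR's quasi-likelihood test). Over all genes tested, 26% were higher and 27% lower. Among the 6 are UQCRHL, the near copy of UQCRH, and COX7B2, which passed the filter on low counts only through the naive libraries. At an unadjusted p under 0.05 these were 8 and 0, and DESeq2 and limma-voom called 6 and 8 higher and 0 lower. COX7B2, a relative of COX7B known from testis, was at 1.07, 0.990, 1.88 and 2.36 CPM in naive libraries and had no counts in primed ones, at least 25.6-fold higher against 3 counts per library. The lowest of the list was ATP5IF1, the inhibitor of the ATP synthase, which did not pass at 0.06.

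The promoters of the subunits were searched for 4 motifs that are known from genes of the respiratory chain, a choice made with the values known. RefSeq promoters of 300 bases were matched for 33 of the 43 genes. The NRF1 motif (GCGCATGC, either strand) occurred in 24.2% of them against 3.05% of all 35116 promoters, and the ETS family core (CCGGAAG) in 42.4% against 10.3%. The YY1 motif (AAGATGGC) was found in 15.2% against 2.89%, and the ERR motif (AAGGTCA) in 12.1% against 3.92%. CpG dinucleotides numbered 0 to 42, with a median of 21 against 14 in all promoters, so base composition differed between the sets as well. Among the 21 matched genes called higher, 11 held the ETS core and 7 the NRF1 motif. Of the genes called lower, ATP5MC2 held the NRF1 motif and none held the ETS core. These are matches of letters, not measured sites, and any link to the direction of change was not tested.

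Transcript length moved with the fold changes. Over the 40 tested subunits with a mean of at least 1 CPM, Spearman's rho between the median length of coding transcripts and the log2 fold change was -0.36, and over 16138 protein-coding genes it was -0.10. These correlations run across genes, which share the same 6 libraries and are not independent. The part of length in the fold changes was not tested.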

How the data were processed

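RNA-seq libraries of 4 naive and 2 primed cultures were grouped by the cell type in their labels, and induction methods were not tested singly. Nothing in the sources says that the cultures were independent, so p-values measure the spread between these libraries. The values are raw counts per Ensembl gene, deposited by the authors as whole numbers. Adapters were trimmed with cutadapt 1.15 (Trim Galore 0.4.4), reads were mapped with Bowtie2 2.2.5 to the cDNA and noncoding RNA of Ensembl GRCh38 release 100, and alignments of mapping quality 1 or more were summed per gene. The labels' notes also name RSEM and limma, whose values were not used here. The 23 columns of other studies were not used, and 26 spike-ins, with at most 1 count in a library, were left out.

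Identifiers sharing a symbol were summed. The states were compared with edgeR 4.0.16 (R 4.3.3; glmQLFit and glmQLFTest, TMM factors from 0.936 to 1.06, filterByExpr by group, no covariates, common dispersion 0.0563) over 26497 genes, with Benjamini-Hochberg adjustment and a threshold of 0.05. Isoform ratios used counts plus 0.5 and an exact permutation test. The test doubles the smaller tail, so its smallest two-sided p is 0.133. Ratios with a minor isoform at a mean of 3 counts or fewer in both groups (COX4I2, COX6A2) are not reported, a criterion set after the counts were seen, but were among the 5 over which p was adjusted. Positions and lengths came from GENCODE 44, and promoters from RefSeq (GRCh38.p14).

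The members and the lists of assembly factors, partners, mitochondrially encoded subunits, oxygen-linked genes and cell type markers were chosen with earlier results of these data known. Values in every library were given for complex II, for the isoform families and for the 2 highest and 2 lowest fold changes of complex III, of the other complex IV subunits and of complex V, and, of each list, fold changes of the highest and lowest gene. The comparison with genes of 50 CPM or more, the ATP5MC3 values, the c-ring shares, the length correlations, the motifs and the promoters shown were added after the values were seen.

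On simulated data at the depth of these libraries, with 200 of 25582 genes changed 2-fold, edgeR recovered 47% with 12 false calls, DESeq2 1.42.0 57.5% with 39 and limma-voom 3.58.1 46.5% with 8. The changed genes were drawn at all levels, whereas most subunits are abundant. In the real data 26% of genes were called higher and 27% lower, so these rates do not carry over to the subunits. Counts of AICAR 1 and AICAR 2 differed by a chi-square of 24.0 per gene, within the 22.6 to 41.6 of the naive pairs, so they were not 1 library deposited again and were kept as 2 samples. This does not show that their cultures were independent, and they were also summed as an alternative. Alternatives were other scalings (library totals, median-ratio size factors), DESeq2, limma-voom, 2 other filters, identifiers kept apart, pseudogene copies added, the parental line as a block, AICAR libraries summed, each library left out, and, for ratios, a pseudocount of 5. Limits from 3 counts cover counting error only. Figures were drawn with Python 3.11.15 and matplotlib 3.10.9.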

Additional observations from a re-analysis of the deposited data

Results flagged for a closer look

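UQCRFS1 drew attention because VPA stood apart from the other naive libraries. VPA was at 122 CPM and the other naive libraries at 132 CPM in each case, so the gap to the nearest was 0.937 of the naive range. The spread is narrow, with the highest naive library 1.09 times the lowest. Relative to its own parental primed library, UQCRFS1 also went down in CA-p38, by a log2 ratio of -0.0729, and up in VPA, AICAR 1 and AICAR 2, by 0.06, 0.18 and 0.19. This difference was not tested, since CA-p38 is 1 library.

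COX7A2L was higher in AICAR 1 than in the other naive libraries, at 65.7 CPM against 51.7 CPM in VPA, the nearest, a gap of 0.918 of the naive range. The call of the gene depends on this library, as it was lower in naive cells without AICAR 1. The search covered the naive values of 41 genes, and 2 stood out in this way, where chance alone gives about 1 in 20.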

How the results depend on the processing

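Across 16 alternatives, the subunits called higher numbered 22 to 32 and those called lower 2 to 4, and 29 of the 41 tested genes had the same call in every alternative run. Leaving out single libraries gave 22 to 28 higher and 2 to 4 lower, with the fewest higher without primed CA-p38. The median over all genes tested (log2, 0.11) became 0.20 when scaled by library totals and 0.06 under median-ratio factors. It was 0.18 in limma-voom, which was also scaled by library totals, so these runs share that choice. The median of the subunits stayed 0.38 to 0.48 above that of all genes over all alternatives. A call was lost somewhere by 8 genes and gained by 4. No called value changed sign. The genes that did were never called. ATP5F1A turned to 0.069 when scaled by library totals, 0.066 in limma-voom, 0.0049 under the filter of 10 counts per library and 0.0027 when blocked by parental line, and single libraries left out gave it values from -0.11 to 0.040. UQCRFS1 turned to -0.031 both under median-ratio factors and in DESeq2 and to -0.0047 without the filter, with values from -0.11 to 0.16 over single libraries left out. UQCRQ ranged from -0.025 to 0.21 in the same way. The COX7A1 to COX7A2 ratio turned to -0.031 with a pseudocount of 5 counts. With the parental line as a block, 28 were higher and 3 lower, and with the AICAR libraries summed 27 and 3. The replicate numbers mark no shared sample and were not used as a block. Depth limited COX4I2, COX6A2 and COX7A1, and COX6B2 in primed libraries, while the other 39 genes had at least 1000 counts in every library. COX7A1 was not tested with the AICAR libraries summed, with at least 10 counts required in each library, or without AICAR 1 or AICAR 2.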

Other observations

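Of 9 oxygen-linked regulators and targets, 4 were higher and 2 lower in naive libraries (edgeR, Benjamini-Hochberg adjusted p under 0.05), where 26% and 27% of all genes tested were. HIF1A, the oxygen-regulated transcription factor subunit, was at 71.5, 80.5, 79.9 and 72.3 CPM in naive and 273 and 294 CPM in primed libraries, and its log2 fold change was -1.90 (adjusted p = 4.84e-09). RBPJ was also lower, at -0.81. CHCHD2, a mitochondrial protein that also acts on transcription of COX4I2, was at 244, 227, 291 and 230.2 CPM and 87.4 and 92.3 CPM, a log2 fold change of 1.46 (adjusted p = 5.11e-07), while COX4I2 itself had at most 4 counts in any library. LONP1, a mitochondrial protease, EGLN3 and VEGFA were higher, with log2 fold changes of 0.73, 1.43 and 0.95. NDUFA4L2 had the highest fitted value of the list, 2.35, from levels of at most 1.09 CPM, and did not pass (adjusted p = 0.0678).

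Of 4 general pluripotency genes, NANOG was higher (1.33) and SOX2 and LIN28A were lower (-0.87 and -1.73), and POU5F1 did not pass (-0.12). Of 4 neural markers, 1 was higher (TUBB3, 0.52) and 1 lower (MAP2, -7.03). Over all genes tested, 26% were higher and 27% lower.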
